A study of Rattus norvegicus with 8 samples.

Results

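Npy and Agrp encode the appetite-raising peptides of the arcuate nucleus, and both transcripts were measured in hypothalamic RNA of female Sprague-Dawley rats aged 21 days. Each gene symbol had 1 probe set in the array annotation (10855506 for Npy and 10810658 for Agrp), so the 2 genes are 2 of the 14506 analysed and no choice between probe sets was needed. There were 8 Affymetrix Rat Gene 1.0 arrays, a replicate A and a replicate B in each of 4 groups. CR-l and CR-s offspring came from mothers whose calories were cut by 50% between gestation days 11 and 21 and again postnatally, and had received leptin (CR-l) or saline (CR-s) between postnatal days 2 and 8. Con-l and Con-s offspring came from normally fed mothers and had received leptin or saline over the same days. The series design spells Con-l as Con-r, and the titles were followed. The wording of the sample sources leaves unclear whether mothers or pups received leptin. No source used here says whether an RNA sample pools animals or litters, so p-values measure only the spread between these samples, which may be technical. All groups are female, of a single strain and age, and the tissue is the whole hypothalamus rather than the arcuate nucleus.

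NPY and AGRP are made by the same neurons of the arcuate nucleus. NPY acts on the receptors NPY1R and NPY5R to drive feeding, and AGRP blocks the melanocortin receptors MC3R and MC4R, on which the POMC product alpha-MSH acts to restrain it. These neurons are known to be inhibited by leptin and insulin and activated by ghrelin and fasting, and leptin in the first weeks of life is known in rodents to shape the outgrowth of their axons. The comparisons ask whether maternal restriction moved the transcripts and, as the series title puts it, whether early leptin moved neuropeptide regulation back. In a bulk sample, fewer cells of a type and less RNA per cell cannot be told apart.

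Since both genes moved together with diet, the stretch around the start of each is shown, from 250 bases before to 50 bases after the RefSeq start site in the rat build GRCr8. Both lines run 5′ to 3′ on the gene's own strand, and capitals mark the core of the classical Sp1 promoter element (GGGCGG), the motif of a TATA-like promoter element (ATAAAA) and the core recognised by homeodomain proteins (TAAT), each searched on both strands. The Npy window lies at chr4:80211861-80212160 on the plus strand and the Agrp window at chr19:50359448-50359747 on the minus strand.
Npy: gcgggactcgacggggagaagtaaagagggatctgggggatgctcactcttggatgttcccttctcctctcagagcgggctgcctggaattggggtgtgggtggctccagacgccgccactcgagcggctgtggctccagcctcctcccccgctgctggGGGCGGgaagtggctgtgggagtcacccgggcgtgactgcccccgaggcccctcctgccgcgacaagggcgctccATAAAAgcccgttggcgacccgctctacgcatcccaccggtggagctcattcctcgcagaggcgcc
Agrp: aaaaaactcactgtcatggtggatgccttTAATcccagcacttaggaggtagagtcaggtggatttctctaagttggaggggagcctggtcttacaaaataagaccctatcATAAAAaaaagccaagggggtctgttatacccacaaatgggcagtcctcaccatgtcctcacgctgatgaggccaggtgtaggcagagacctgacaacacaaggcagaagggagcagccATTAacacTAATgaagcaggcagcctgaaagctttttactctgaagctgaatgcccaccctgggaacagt
The Npy window is rich in G and C (67.7%, with 23 CG pairs) and the Agrp window is not (48.3%, with 1), where the median of 33469 rat promoter windows was 51.7%. The Npy window holds 1 GGGCGG, at -91, a motif in 33.1% of all windows, and 1 ATAAAA, at -16. The Agrp window holds 1 ATAAAA, at -139, which 20.5% of windows hold, and 3 matches to TAAT, at -221, -20 and -12, which 60.6% of windows hold. The matches do not overlap. Neither window holds TTCNNNGAA (STAT, in 8.87% of windows), GTAAACA (FOXO, 3.78%), TGACGTCA (a cAMP response element, 1.83%) or the glucocorticoid receptor core AGAACA (20.7%). These matches describe letters in these windows and say nothing of binding.

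Npy had an intensity of 1209 and 958 in CR-l (replicates A and B), 992 and 869 in CR-s, 553 and 501 in Con-l, and 722 and 616 in Con-s. On the log2 scale these were 10.24 and 9.90 in CR-l, 9.95 and 9.76 in CR-s, 9.11 and 8.97 in Con-l, and 9.50 and 9.27 in Con-s. All 4 arrays of restricted offspring lay above all 4 arrays of controls, and the Con-l pair was lowest.

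Agrp had an intensity of 321 and 246 in CR-l, 288 and 314 in CR-s, 185 and 165 in Con-l, and 186 and 182 in Con-s. The log2 values were 8.33 and 7.94 in CR-l, 8.17 and 8.29 in CR-s, 7.53 and 7.37 in Con-l, and 7.54 and 7.50 in Con-s. Restricted and control arrays again did not overlap, and within each diet the leptin and saline arrays did: CR-l held both the highest and the lowest restricted array. Restricted arrays lay wholly above control arrays in 4.52% of all genes.

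**Figure D1:**
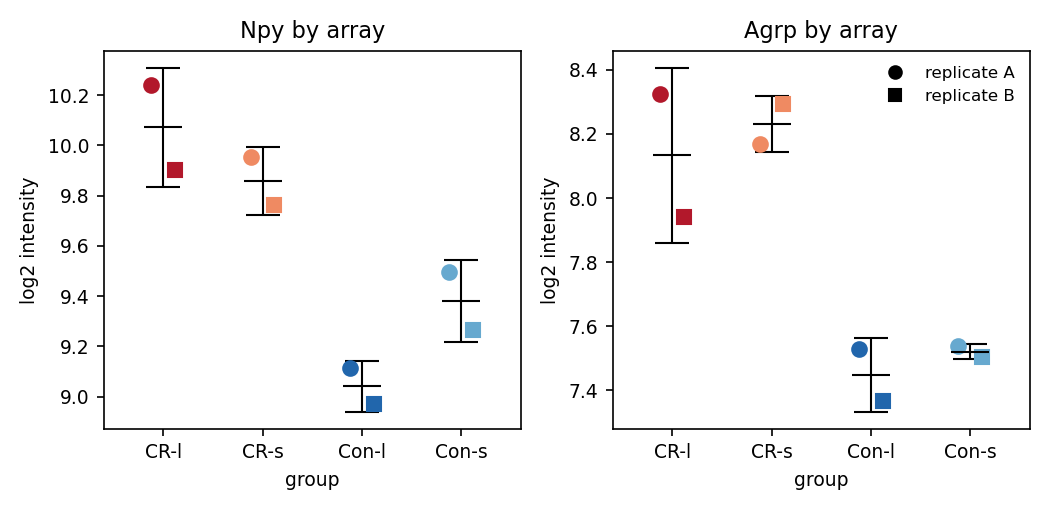
Log2 intensity of Npy (left) and Agrp (right) on each array, by group; circles are replicate A, squares replicate B, and the bar and whiskers are the group mean ± SD (n = 2). Every restricted array (CR-l, CR-s) lies above every control array (Con-l, Con-s) for both genes.

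Pooled over the 4 groups, replicates of both genes differed by more than those of a typical gene. The residual SD within groups was 0.17 (log2) for Npy and 0.15 for Agrp, beside a median of 0.08 over all genes. The widest gap was in CR-l, where replicate A exceeded replicate B by 0.34 for Npy and 0.39 for Agrp, and 4.45% and 2.89% of all genes had a wider gap there. In Con-s the Agrp replicates differed by 0.03, and 77.4% of all genes had a wider gap. For Npy, replicate A was the higher array in all 4 groups (by 0.14 to 0.34), and for Agrp in 3 of 4, CR-s being the exception (-0.12).

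The order of group means for Npy was CR-l (10.07 ± 0.24, SD, n = 2), CR-s (9.86 ± 0.13), Con-s (9.38 ± 0.16) and Con-l (9.04 ± 0.10). The neighbours CR-l and CR-s overlapped, while CR-s lay above Con-s and Con-l lay below Con-s without overlap. With 2 arrays against 2 such separation is common: 16.9% of all genes were wholly higher in CR-s than in Con-s, and 16.5% wholly lower in Con-l than in Con-s. For Agrp the order was CR-s (8.23 ± 0.09), CR-l (8.13 ± 0.27), Con-s (7.52 ± 0.02) and Con-l (7.45 ± 0.11), where only the step between CR-l and Con-s separated neighbours.

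Averaged over leptin and saline, both transcripts rose in restricted offspring. Npy was 1.69-fold as high in CR as in Con (95% confidence interval 1.44 to 1.97; limma adjusted p = 0.0229) and Agrp 1.62-fold (1.40 to 1.88; adjusted p = 0.0233). In this comparison 1.21% of the 14506 genes passed at an adjusted p under 0.05, and 0.324% passed as higher. By size of the log2 difference Npy ranked 5 and Agrp ranked 10 among all genes, counted from the highest. The exact two-sided permutation test over the 70 splits of 8 arrays into 4 and 4 gave p = 0.0286 for each gene, the smallest it can give, and p = 0.0858 after adjustment over the 6 exact tests run.

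The calls depended on the features and arrays in the fit. With all 29215 probe sets in it the adjusted p was 0.0788 for both genes, and the unadjusted p was higher too (0.00017 against 8.36e-05 for Npy, 0.000188 against 9.33e-05 for Agrp). Npy lost the call without any 1 of the 8 arrays (adjusted p from 0.0502 to 0.0987). Agrp lost it without any CR-s or Con array (up to 0.102) and kept it without either CR-l array, and all these differences stayed between 0.60 and 0.84 on the log2 scale.

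The diet difference could be measured on separate arrays under each treatment. Under leptin (CR-l against Con-l) Npy differed by 1.03 on the log2 scale (SE 0.13, adjusted p = 0.0605) and Agrp by 0.68 (SE 0.13, adjusted p = 0.0983), folds of 2.04 (95% interval 1.64 to 2.55) and 1.61 (1.31 to 1.98). Under saline (CR-s against Con-s) Npy differed by 0.48 (SE 0.13, adjusted p = 0.412) and Agrp by 0.71 (SE 0.13, adjusted p = 0.267), folds of 1.39 (1.12 to 1.73) and 1.64 (1.33 to 2.01). None of these 4 differences passed. With limma 3 of 14506 genes (0.0207%) passed under leptin and 0 under saline, where 3.4% had an unadjusted p under 0.05 as higher genes. In rank of rise among all genes Npy stood at 4 under leptin and 39 under saline, and Agrp at 17 and 7.

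The calls under leptin turned on the settings. Npy passed there after quantile normalization (adjusted p = 0.0476), cyclic loess (0.0489), a filter to the brighter 60% of genes (0.0146) and limma's trend and robust settings (0.00713). Agrp passed with the filter (0.0295) and with trend and robust settings (0.0109). Under saline Agrp passed with trend and robust settings too (0.0295), and Npy with none of the settings.

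**Figure D2:**
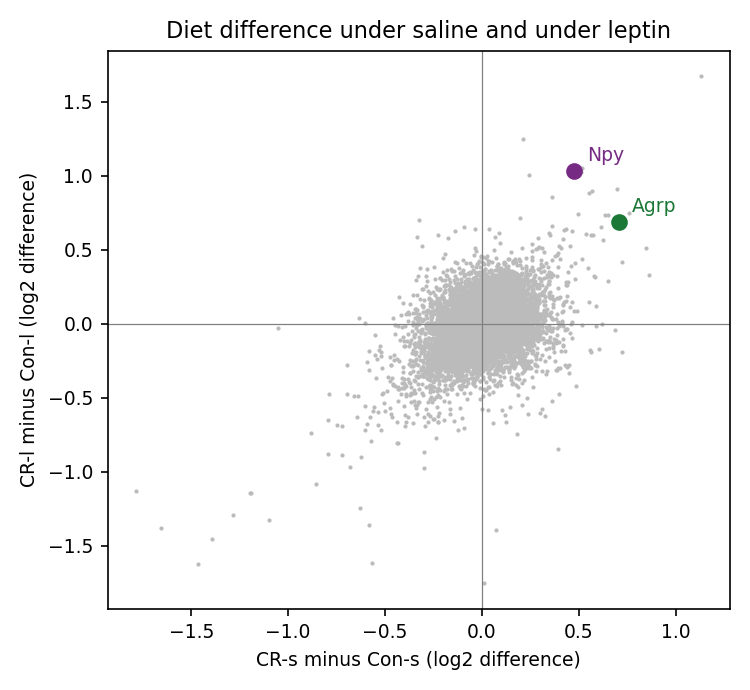
Log2 diet difference of each of 14506 genes (grey points) under saline (horizontal axis, CR-s minus Con-s) and under leptin (vertical axis, CR-l minus Con-l), which share no arrays. Npy (0.48 and 1.03) and Agrp (0.71 and 0.68) lie in the upper right, each within the highest 39 of 14506 genes on either axis.

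In restricted offspring, early leptin was not accompanied by a detectable fall of either transcript. CR-l against CR-s, Npy differed by 0.21 (95% interval -0.10 to 0.53, adjusted p = 0.823) and Agrp by -0.10 (-0.40 to 0.20, adjusted p = 0.907). The lower end of the Agrp interval is smaller in size than the diet difference of 0.71 under saline. That difference has an interval of its own (0.41 to 1.01) and shares the CR-s arrays, so in size the 2 intervals nearly meet. The Npy interval reaches no lower than -0.10. Without CR-l replicate B the Npy difference was 0.38 and the Agrp difference 0.09, and without CR-l replicate A they were 0.045 and -0.29. Without CR-s replicate A or B the Npy difference was 0.31 or 0.12. By limma no gene (0) passed here; at an unadjusted p under 0.05, 3.05% of genes were higher and 2.81% lower.

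Leptin-treated restricted offspring were also set directly against saline-treated controls (CR-l against Con-s). Npy was 1.61-fold as high in CR-l as in Con-s (95% interval 1.30 to 2.01, adjusted p = 0.154) and Agrp 1.53-fold (1.24 to 1.88, adjusted p = 0.175). Neither passed over all genes, where 2 genes did (0.0138%), and the CR-l arrays lay wholly above the Con-s arrays for both, as they did in 22.5% of all genes. With trend and robust settings both passed (adjusted p = 0.0486 for Npy and 0.0253 for Agrp). This comparison shares its Con-s arrays with the saline one and its CR-l arrays with the leptin one.

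In control offspring the leptin-treated group was the lower one for Npy. Con-l against Con-s, Npy differed by -0.34 (95% interval -0.66 to -0.02, unadjusted p = 0.0384, adjusted p = 0.997) and Agrp by -0.07 (-0.37 to 0.23, adjusted p = 0.997). By limma no gene (0) passed here either; at an unadjusted p under 0.05, 2.01% of genes were lower, Npy among them. The Npy difference was -0.23 without Con-s replicate A and stood between -0.46 and -0.27 without any other single array. Npy was not alone: 15 of 16 genes of other hypothalamic nuclei were lower (median -0.11), and 9 of 12 of other arcuate neurons (-0.13). The split was more even in other AgRP neuron genes (8 lower, 5 higher, -0.04) and in other NPY-expressing neurons (7 lower, 4 higher, -0.04). All 5 red blood cell genes were lower (-0.25). Of 10 cortex, striatum and thalamus genes 8 were higher (median 0.25), and of 9 pituitary genes 8 (0.05), where the median of all genes was -0.00. None of these list members passed, and the part of tissue content in the Npy value was not tested. Averaged over diets, leptin against saline gave -0.06 for Npy (adjusted p = 0.945) and -0.08 for Agrp (adjusted p = 0.925), and the exact permutation p was 0.829 and 0.771.

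The leptin difference of Npy ran in opposite directions in the diets, and the difference between them was 0.55 (SE 0.19, 95% interval 0.11 to 1.00). Its unadjusted p was 0.0222 and its adjusted p 0.898, so it did not pass, and 2.42% of genes had an unadjusted p under 0.05 in that direction. For Agrp the same term was -0.03 (SE 0.18, -0.45 to 0.40, adjusted p = 0.992). By limma 0 genes passed this test. Npy was not alone in direction: of 16 genes of other hypothalamic nuclei 13 were above 0 and 3 below (median 0.15). Of 13 other AgRP neuron genes 7 were above and 6 below (0.06). All 9 pituitary genes and all 9 oligodendrocyte genes were below, where the median of all genes was 0.01.

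**Figure D3:**
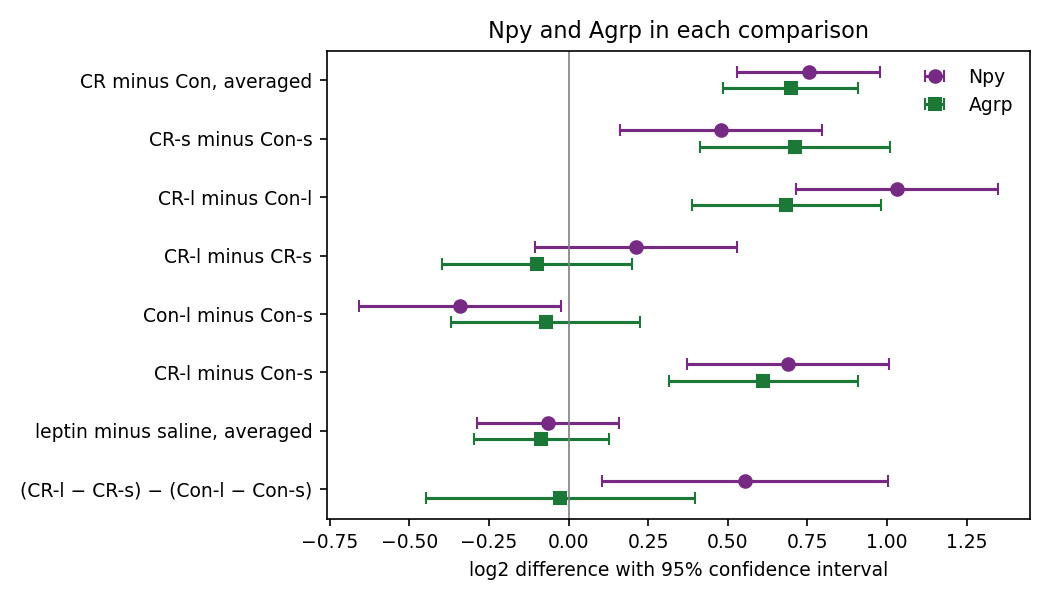
Log2 difference of Npy (circles) and Agrp (squares) in each of the 8 comparisons, with 95% confidence intervals from the limma fit of all 8 arrays. The intervals of the comparisons of CR with Con lie above 0, and those of CR-l with CR-s include 0.

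Since the same neurons make both peptides, the genes were also set against each other within each array. The log2 value of Npy minus that of Agrp depends on the brightness of each probe set, so only its change between arrays is read. It was 1.91 and 1.96 in CR-l, 1.79 and 1.47 in CR-s, 1.58 and 1.60 in Con-l, and 1.96 and 1.76 in Con-s. Leptin arrays were above saline arrays in restricted offspring and below them in controls, with no overlap in either diet. Of single genes, 20.5% were wholly higher in CR-l than in CR-s and 16.5% wholly lower in Con-l than in Con-s. Averaged over treatment the within-array difference was 1.78 ± 0.22 in CR and 1.73 ± 0.17 in Con (SD, n = 4 each), a difference of 0.06 with an exact permutation p of 0.657. Averaged over diet it was 1.77 ± 0.20 with leptin and 1.74 ± 0.20 with saline (exact permutation p = 0.943).

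The genes with the most similar profile over the 8 arrays were found by the root mean square difference of log2 values, each gene centred on its own mean. For Npy these were Slc19a3 (0.17), a thiamine transporter, Txnip (0.17), a thioredoxin-interacting protein, the histone gene H2ac21 (0.17), Fkbp5 (0.17), a co-chaperone of steroid receptors, and Agrp itself (0.18). Agrp thus ranked 5 of 14505 genes in likeness to Npy, where the median gene stood at 0.43 and a flat profile would stand at 0.42. For Agrp they were the olfactory receptor gene Or2k2 (0.12), Fkbp5 (0.13), Slc19a3 (0.16), Pbld1 (0.16) and the ferroxidase gene Heph (0.17). Npy came next, at rank 6 (0.18), where a flat profile would stand at 0.37. This distance takes in the step between diets, in which Npy ranked 5 and Agrp 10 of all genes. Genes with a like diet difference therefore stand near each other, and these ranks are no evidence apart from that step. H2ac21 belongs to a histone family with near-identical copies, so its probe set may read several genes. Or2k2 was dim, between 5.41 and 6.13 on the log2 scale, and without detection calls its expression here is uncertain. With 4 arrays a diet, no correlation within a diet was computed.

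**Figure D4:**
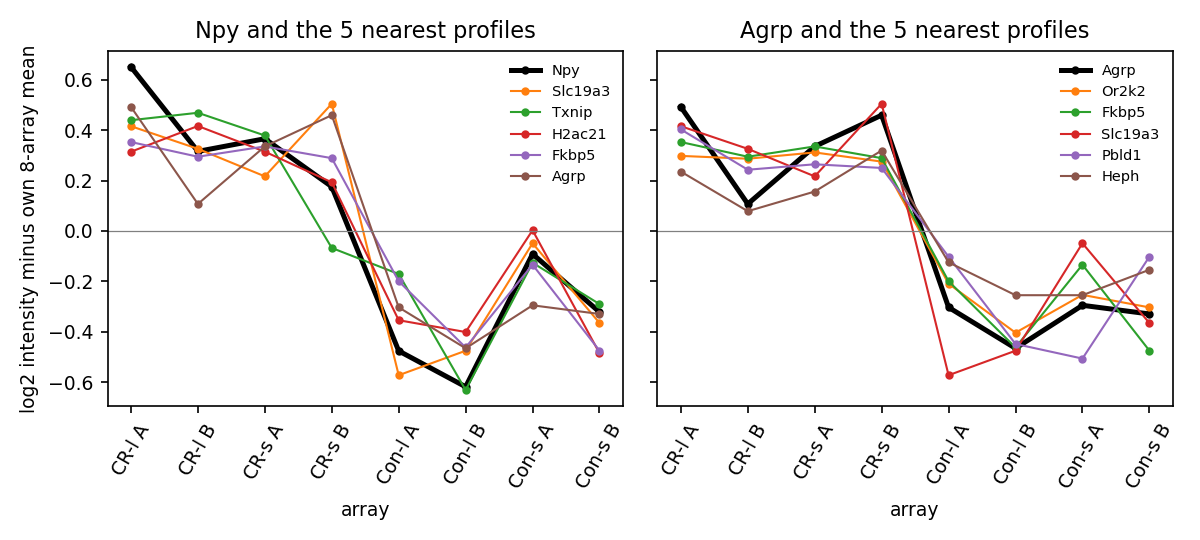
Log2 intensity minus each gene's own mean over the 8 arrays (vertical axis) on each array (horizontal axis), for Npy (left, black) and Agrp (right, black) with their 5 nearest genes. All of these profiles step down between restricted and control arrays, and of the drawn genes Txnip lies near 0 on CR-s replicate B (-0.07).

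The receptors and relatives of NPY did not pass in the averaged diet comparison. Of 6 measured genes 3 were higher and 3 lower, with a median log2 difference of 0.03 beside 0.00 for all genes. Npy1r, the receptor through which NPY drives feeding, had 0.23 (SE 0.06, adjusted p = 0.139), Npy2r, the presynaptic autoreceptor, had 0.09, Npy4r had -0.24 (SE 0.24) and Npy5r had -0.01. The peptide YY gene Pyy had -0.09. Npy1r measured 7.26 ± 0.02 in CR-l, 6.84 ± 0.17 in CR-s, 6.80 ± 0.05 in Con-l and 6.85 ± 0.06 in Con-s (SD, n = 2 each). It was thus higher in CR-l than in the other groups, by 0.42 over CR-s (SE 0.09, adjusted p = 0.808) and 0.46 over Con-l (SE 0.09, adjusted p = 0.102), and neither difference passed.

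Of the melanocortin system, on which AGRP acts, 10 other genes were measured: 6 were higher, 4 lower and none passed (median 0.05). Mc3r had 0.23 (SE 0.10, adjusted p = 0.33), Mc4r 0.09 (SE 0.14, adjusted p = 0.794) and Pomc -0.18 (SE 0.05, adjusted p = 0.161). Atrn, whose protein attractin is an accessory receptor for the AGRP relative agouti in mice, had -0.12, and the ubiquitin ligase gene Mgrn1 had 0.10.

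Of 10 other measured peptides that raise food intake, 4 were higher and 6 lower, between -0.18 (Npvf) and 0.08, with a median of -0.02. None passed, as 1.21% of all genes did in either direction. Galp stood at -0.11 and Pnoc, the nociceptin precursor, at 0.05. Among 17 peptides that lower intake, Oxt, the oxytocin gene, passed as lower (-0.38, SE 0.07, adjusted p = 0.0496). Nucb2, the nesfatin precursor, had 0.35 (SE 0.07, adjusted p = 0.0648), Npb 0.25 (SE 0.06, adjusted p = 0.095) and Cartpt -0.22 (SE 0.06, adjusted p = 0.145).

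Genes upstream of the pair gave no call. Of 17 measured regulators of Npy and Agrp transcription 8 were higher and 9 lower (median -0.00). The lowest p values were those of Ppargc1a (0.25, SE 0.05, adjusted p = 0.0642), a nuclear coactivator of energy metabolism, Creb1 (-0.17, adjusted p = 0.144) and Isl1 (0.21, adjusted p = 0.335). Stat3, which carries the leptin signal to the nucleus, had -0.11 and Foxo1, which in mice activates both genes, had -0.03. Of 17 genes of leptin, insulin and ghrelin signalling 9 were higher and 8 lower (median 0.03), with Igf1r at 0.22 (SE 0.04, adjusted p = 0.0639), Cpt1c at -0.12, Akt1 at 0.10, the leptin feedback gene Socs3 at -0.03 and the ghrelin receptor gene Ghsr at 0.10. Lepr, Bsx and Pcsk1 were not analysed here.

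Peptide processing and secretion genes were split evenly, 7 higher and 7 lower of 14, with a median of 0.02 and none passing. Chga, a granin of secretory granules, had 0.12, Cpe, the carboxypeptidase that trims peptide precursors, 0.12, the aminopeptidase gene Anpep -0.09 and Pcsk2, a convertase, 0.09.

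Genes of the neurons themselves were listed too. Of 13 other genes expressed by AgRP neurons 9 were higher and 4 lower, between -0.05 and 0.23 (median 0.06), and none passed. Besides Npy1r, the lowest p values there were those of the orphan receptor gene Gpr6 (0.07) and Asb4 (0.12). The summed intensity of the 13 was 11318 to 11753 in CR and 10842 to 11789 in Con, but 82.97% of it came from the 4 genes Sst, Gad2, Pcsk1n and Gad1, which many other neurons express, so the sum says little of AgRP neurons. Of 12 genes of other arcuate neurons 7 were higher and 5 lower (median 0.01), none passing, with sums of 4340 to 6388 in CR and 4095 to 5614 in Con. The sum of 11 genes of other NPY-expressing neurons was 9177 to 9729 in CR and 8681 to 9475 in Con. In these lists too 4 genes held most of the sum (82.4% and 86.8%), and whether the number of AgRP neurons differed was not tested.

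Lists of the ventricle lining and of tissue outside the hypothalamus also overlapped between diets. These were tanycytes and ependyma (9 genes, 3177 to 3589 in CR, 3257 to 3876 in Con), cortex, striatum and thalamus (10 genes, 1974 to 3488 in CR, 1889 to 3142 in Con) and pituitary (9 genes, 482 to 556 in CR, 490 to 1049 in Con). No member of these 3 lists passed. The highest pituitary sum was that of a Con-l array (520 to 1049 in Con-l, 490 to 523 in Con-s). The pituitary gene Cga differed by 1.76 between Con-l and Con-s (SE 0.80, limma adjusted p = 0.997). Microglial genes overlapped too (6 genes, 3146 to 3425 in CR, 3198 to 3399 in Con). Among neurons of other hypothalamic nuclei Oxt alone passed of 16, with sums of 9685 to 9892 in CR and 9559 to 11861 in Con. In these lists too 4 genes held most of the sum, from 66.1% (other hypothalamic nuclei) to 93.6% (microglia).

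Other markers did move with diet beside Npy and Agrp; of all 14506 genes, 0.882% passed as lower. All 5 red blood cell genes fell, with sums of 1306 to 2124 in CR and 3796 to 5764 in Con. All 9 oligodendrocyte genes were lower and 4 fell (32670 to 35632 in CR, 38731 to 41758 in Con). Of 11 meningeal and choroid plexus genes 8 were lower and 4 fell (2311 to 2733 in CR, 3198 to 4355 in Con). Of 9 vessel genes 7 were lower and 2 fell (4244 to 4390 in CR, 4765 to 5082 in Con), and of 7 astrocyte genes 5 were lower and 1, Gfap, fell (15323 to 16635 in CR, 16785 to 17739 in Con). The 4 brightest genes of a list held from 65.2% (oligodendrocytes) to 98.0% (red blood cells) of its sum.

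Genes of the glucocorticoid response, a list that also holds the receptor gene Nr3c1, went the other way. All 15 measured were higher and 6 rose, where 0.324% of all genes passed as higher, with sums of 8838 to 11457 in CR and 6945 to 7543 in Con. The 4 brightest genes held 59.0% of the sum. Zbtb16 (0.72, SE 0.08, adjusted p = 0.0218), Hif3a (0.62, SE 0.09, adjusted p = 0.0311) and Fkbp5 (0.64, SE 0.09, adjusted p = 0.0317) were among the 6. No marker was listed at 0, as the lowest intensity in the table was 2.39. The part that these markers play in the values of Npy and Agrp was not tested.

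**Figure D5:**
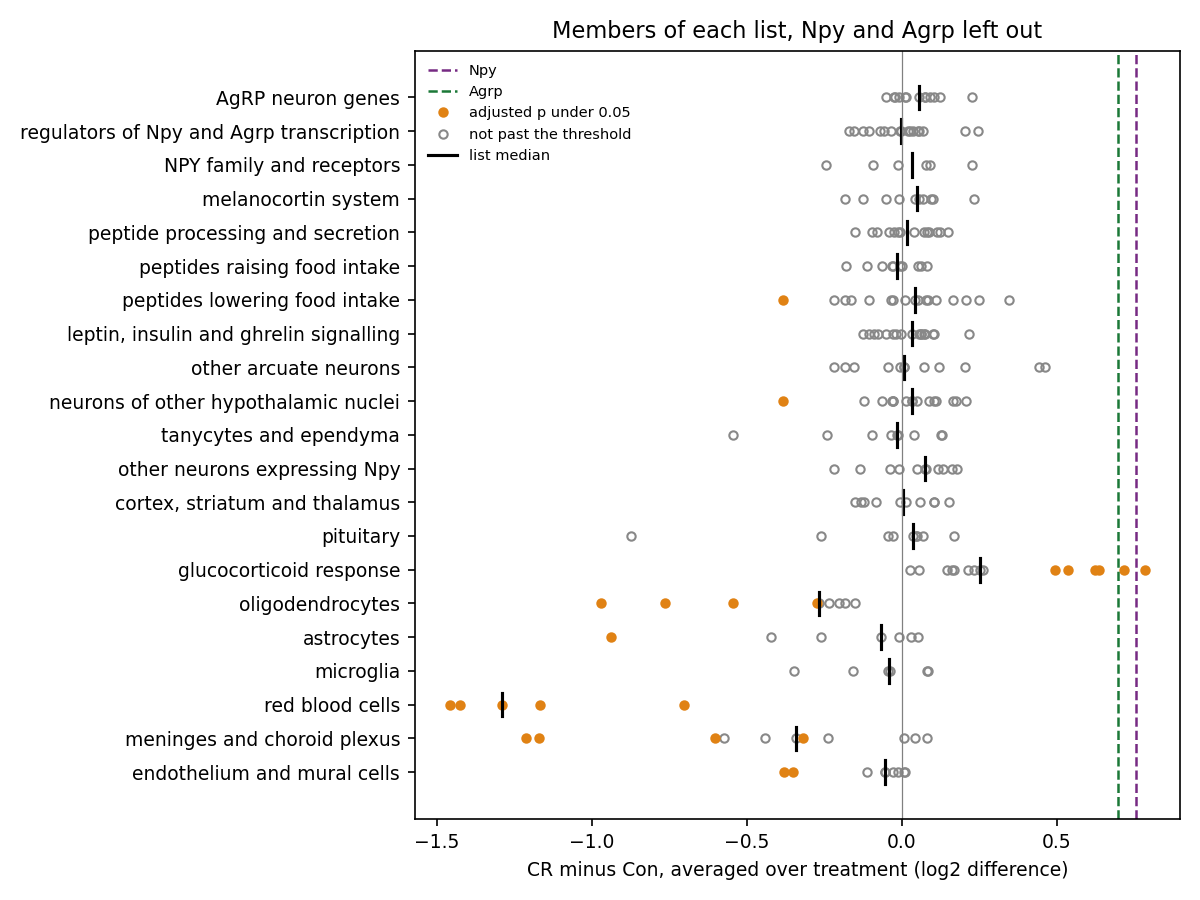
Log2 difference between CR and Con, averaged over treatment (horizontal axis), of each measured member of 21 gene lists (rows) other than Npy and Agrp, which are the dashed lines at 0.75 and 0.70. Filled points passed at an adjusted p under 0.05, open points did not, and black ticks are list medians; the neuron and feeding lists centre near 0, between -0.02 and 0.07.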

How the data were processed

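RNA from 8 hypothalamic samples was hybridised to Affymetrix Rat Gene 1.0 arrays. The authors deposited an intensity for each probe set, made with RMA in Affymetrix Expression Console, per the submitters' processing notes, which name no version. That the intensities are on a linear scale was read from the values (2.39 to 19807). Here they were log2-transformed and not normalized again; median array intensities ran from 111.8 to 114.1. Of 29215 probe sets, 15310 had 1 gene symbol (323 had several), and the brightest per symbol gave 14506 genes. The table has no detection calls, and the number of arrays limits the precision.

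A single limma model of 4 group means (limma 3.58.1, R 4.3.3, lmFit and eBayes, no filter) served all 8 comparisons, two-sided, with Benjamini-Hochberg adjustment over all genes and a threshold of 0.05. It was tested on simulated data. The members, the 21 lists (272 entries, from general knowledge) and the alternatives were chosen with earlier results of these data known, so no list is independent evidence. Members that passed in the averaged diet comparison were named only in part. Those of the red blood cell, oligodendrocyte, meningeal and vessel lists were counted and not named. For the feeding and signalling lists the 3 with the smallest p were named. Beside these stand a fixed set of receptors, peptides and signalling genes and the 5 nearest profiles. Promoter windows are RefSeq's, build GRCr8. Replicate letters A and B were not treated as pairs in the main fit. Correlations of same-letter deviations across genes ran from -0.06 to 0.11. Values over all genes cannot show whether a letter marks something shared that moved Npy or Agrp. The array files used here carry no scan or slide record, so batches were not examined.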

Additional observations from a re-analysis of the deposited data

Results flagged for a closer look

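The leptin difference of Npy ran up in restricted offspring and down in controls: both CR-l arrays lay above the CR-s mean (by 0.38 and 0.05 on the log2 scale) and both Con-l arrays below the Con-s mean (by -0.27 and -0.41). The difference between the diets was 0.55, with an unadjusted p of 0.0222 and an adjusted p of 0.898 in limma, so it did not pass. The CR-l and CR-s arrays overlapped, and the share of all genes with such a pattern was not counted. The same term was above 0 in 13 of 16 genes of other hypothalamic nuclei and below in 3 (median 0.15).

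The within-array difference of Npy minus Agrp did the same, with CR-l arrays 0.29 and 0.34 above the CR-s mean and Con-l arrays at -0.28 and -0.26 from the Con-s mean. The difference between the diets was 0.58 and was not tested. Agrp alone had a CR-l array on either side of the CR-s mean (0.09 and -0.29).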

How the results depend on the processing

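The 8 alternatives tried were quantile normalization, cyclic loess, the brighter 60% of genes, the mean of probe sets, all probe sets together, the replicate letters as a block, trend and robust settings, and the compared factor alone (not possible for the interaction), beside leaving out each array. For both genes neither quantile normalization nor cyclic loess turned a direction, while leaving out an array turned some. The other alternatives keep each gene's values in a balanced design, so they could not change its difference and only its p could move. In the averaged diet comparison the call of both genes ended with all probe sets together (0.75 for Npy and 0.70 for Agrp, adjusted p = 0.0788 each), where the number of tests and the unadjusted p both changed. The genes passing there numbered 175, against 609 among the brighter 60%, 744 with trend and robust settings, 267 with the factor alone, 87 with the block and 0 with all probe sets.

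The block left Npy at 0.75 (SE 0.05, adjusted p = 0.0233) and Agrp at 0.70 (SE 0.08, adjusted p = 0.0458) and changed no call of either gene; without it their SE was 0.10 and 0.09.

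Under leptin Npy passed at 1.03 (quantile, trend and robust, brighter 60%) and 1.02 (cyclic loess), and Agrp at 0.68 (brighter 60%, trend and robust). The genes passing there were 3, against 24 with either normalization, 249 among the brighter 60%, 469 with trend and robust settings, and 0 with the block, the factor alone or all probe sets. Under saline 0 genes passed, against 16 among the brighter 60% and 66 with trend and robust settings, Agrp (0.71) among these. CR-l against Con-s, 2 genes passed, against 103 among the brighter 60%, 213 with trend and robust settings (Npy at 0.69 and Agrp at 0.61 among them) and 0 with the block or all probe sets. The cause of these shifts was not tested.

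Without 1 array, the averaged diet difference ran from 0.67 to 0.84 for Npy and 0.60 to 0.79 for Agrp, and the genes passing from 0 to 27, being 0 without Con-s replicate B. Under leptin they ran from 0 to 3, CR-l against Con-s from 0 to 1, and from 0 to 1 in each of the leptin comparisons and in the interaction. For Agrp the leptin difference ran from -0.29 to 0.095 in restricted offspring, -0.15 to 0.0091 in controls and -0.18 to 0.011 averaged, and the interaction from -0.22 to 0.17. For Npy it ran from 0.045 to 0.38, -0.46 to -0.23 and -0.15 to 0.020 in the same comparisons. As plain means for the exact tests, leptin against saline ran from -0.29 to 0.13 for Npy, -0.26 to 0.056 for Agrp and -0.070 to 0.092 for Npy minus Agrp, and restricted against control from 0.66 to 0.85 for Npy (exact permutation p = 0.0571 without CR-l replicate A, 0.0286 otherwise as the smallest reached) and -0.0030 to 0.16 for Npy minus Agrp.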
